A study of Macaca mulatta with 10 samples.

Results

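The potassium channel genes and the HCN genes of the rhesus macaque dorsal thalamus were measured in 5 nuclei. They are the genes whose annotated symbol starts with KCN, or is HCN followed by a digit, and the symbol alone chose them. The arrays measured 67 such genes among 11963 genes in all. They comprised 2 HCN genes, 5 Kv1, 1 Kv2, 3 Kv3 and 3 Kv4 genes, 7 modifier subunits, 3 Kv beta subunits, 2 KChIP genes, 4 KCNE genes, 4 KCNH genes, 2 Kv7 genes, 12 inward rectifiers, 9 two-pore channels, 5 genes of the large-conductance calcium-activated channel and 3 of the small- and intermediate-conductance channels. The last 2, KCNQ1DN and KCNQ1OT1, carry the prefix but belong to no channel family. RNA came from micro-punches of untreated adult monkey brain taken in the Pulvinar, the Centre Median and the Anterior, Medial and Ventral Thalamus. Each nucleus had 2 arrays, replicate 1 and replicate 2, and the labels do not say whether these came from separate animals, so that p-values measure only the spread between arrays. The tissue is bulk, and fewer cells of a type and less RNA per cell cannot be told apart.

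Potassium channels let potassium ions leave or enter the cell and so set the resting potential and the shape and spacing of action potentials. Voltage-gated (Kv) channels open on depolarization, inward rectifiers hold the membrane near rest, two-pore channels carry the leak current, and calcium-activated channels follow calcium entry. HCN channels open on hyperpolarization and carry a mixed cation current. Thalamic relay neurons fire either single spikes or low-threshold bursts, and the HCN, leak, A-type (Kv4) and calcium-activated currents are among those known to set which mode is used.

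All values are log2 of the deposited RMA intensity plus 1, and pairs of values are given as replicate 1 and then replicate 2. Median intensity was 94.2 to 100.6 across arrays. The minimum of an array was 9.49 to 9.55 in replicate 2 and higher, up to 12.3, in replicate 1. The relay neuron genes TCF7L2 and SLC17A6 had nucleus means of 12.23 to 12.70 and 10.44 to 11.20. The mean over all arrays had a median of 6.68 over the channel genes and 6.99 over all genes. Detection above background was not tested, so a small span in a gene with low readings need not be even expression. The actin 3′ minus 5′ signal, a sign of RNA integrity, was −0.09 to 1.22 in replicate 1 and 1.15 to 1.64 in replicate 2. XIST, a transcript of female cells, was 9.86 to 10.34 in replicate 2, while in replicate 1 it was 8.96 in Centre Median and 9.60 in Pulvinar but 6.70 to 7.22 in the other 3 nuclei. Arrays with the same replicate number deviated together, so each comparison is given from a limma fit without the replicate number and from one with it as a block.

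Channel levels differed somewhat more among the nuclei than those of genes in general, and the gap was not tested. The highest and lowest nucleus means lay a median of 0.28 log2 units apart over the channel genes, beside 0.23 over all genes. The distance exceeded 0.5 in 12 channel genes (17.9%), beside 8.38% of all genes. These were KCNA3, KCNB2, KCND2, KCND3, KCNH2, KCNIP1, KCNJ1, KCNJ2, KCNJ6, KCNK2, KCNMA1 and KCNN3. The largest distances were those of the inward rectifier KCNJ2, lower in Medial than in Ventral Thalamus, and of the A-type channel KCND3, lower in Centre Median than in Ventral Thalamus.

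**Figure D1:**
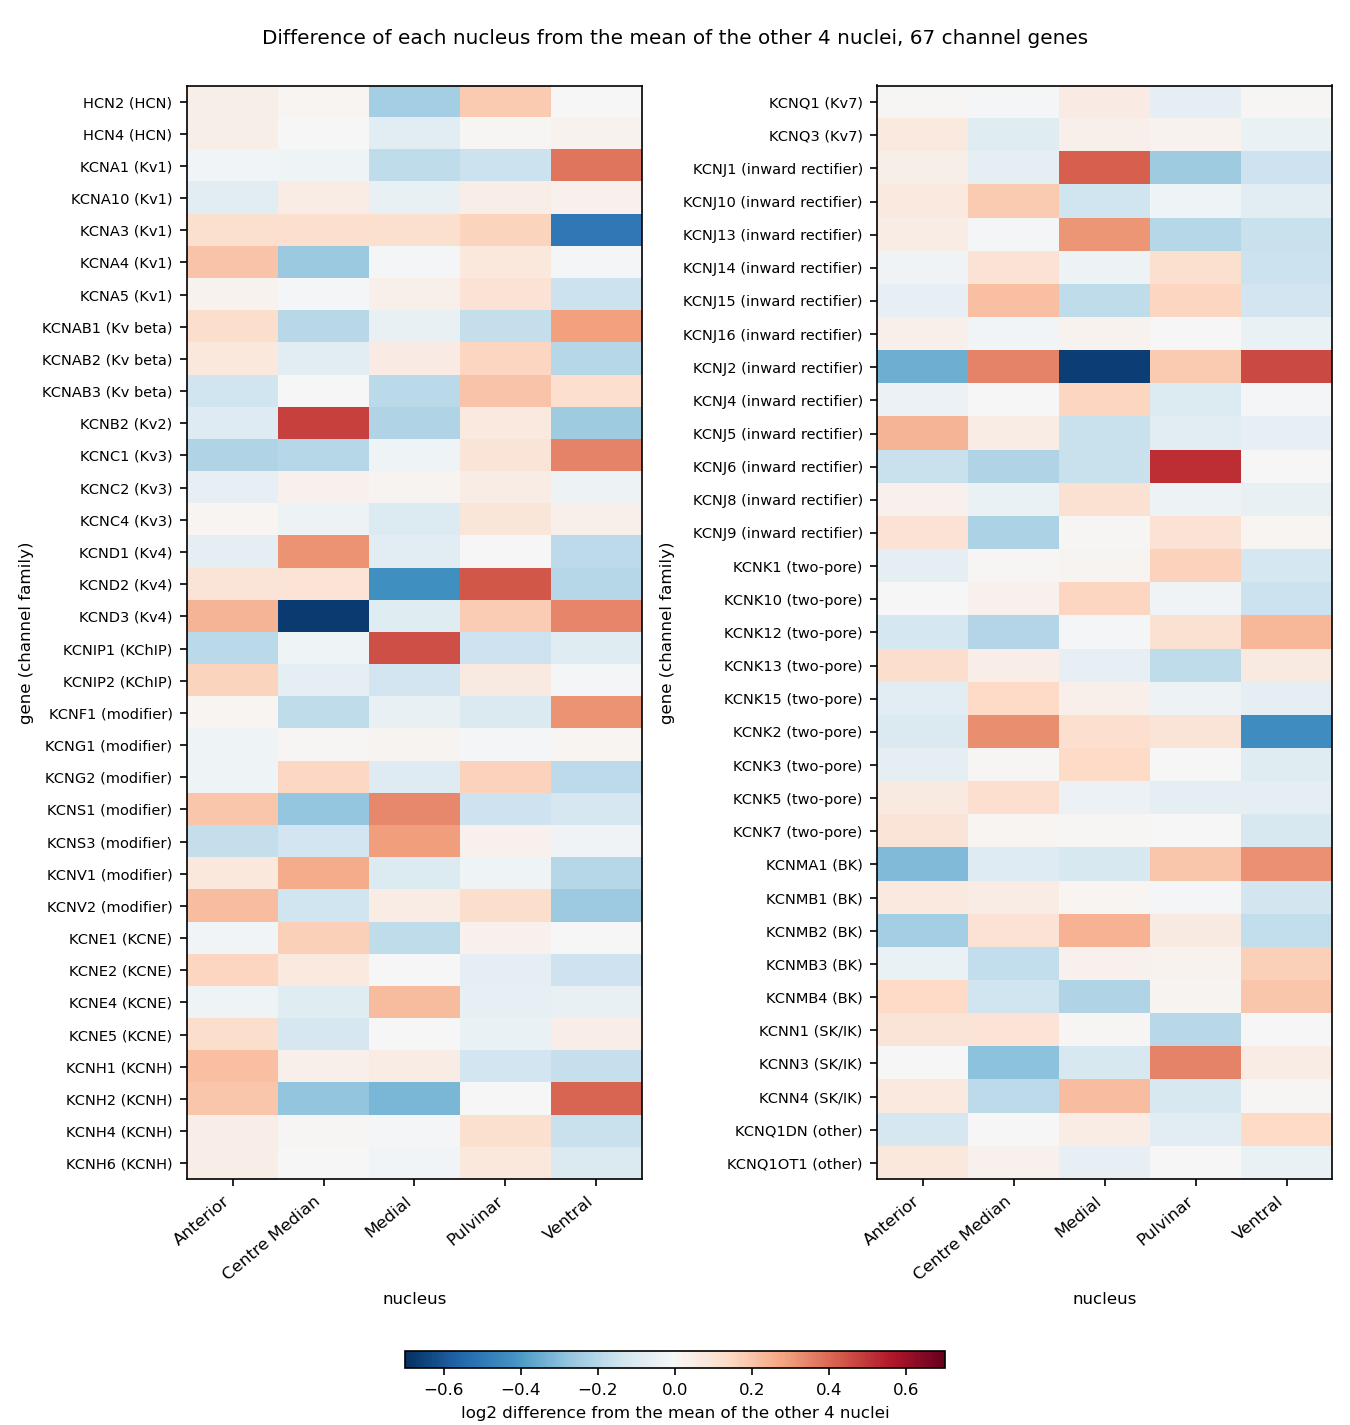
Log2 difference of each nucleus (columns) from the mean of the other 4 nuclei for the 67 channel genes (rows, with the channel family in brackets); red is higher and blue is lower. Most cells are pale, and the deepest are KCND3 in Centre Median (−0.67), KCNJ2 in Medial Thalamus (−0.66) and KCNJ6 in Pulvinar (0.52).

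Without the block, limma called no channel gene at a Benjamini-Hochberg adjusted p under 0.05 in any comparison, and the smallest adjusted p was 1.00. This held for the moderated F test over the 5 nuclei (0% of all genes called), for each nucleus against the other 4 (0% of all genes for Anterior Thalamus, Medial Thalamus, Pulvinar and Ventral Thalamus, and 0.0251% for Centre Median) and for the 10 pairs of nuclei (0.0167% of all genes called in at least 1 pair). At an unadjusted p under 0.05, no channel gene passed the F test, beside 0.719% of all genes. In Anterior and Ventral Thalamus against the rest 0 channel genes passed at that level, beside 0.301% and 1.57% of all genes. KCNB2, KCND1 and KCND3 passed in Centre Median (0.995% of all genes), KCNIP1 in Medial Thalamus (1.22%) and KCNJ6 in Pulvinar (0.284%). The same 5 genes were those that passed in at least 1 pair of nuclei, beside 4.28% of all genes.

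Once the replicate number entered the fit as a block, 2 pairwise calls were made. KCND3 was lower in Centre Median than in Ventral Thalamus, a comparison with 0.368% of all genes called, and KCNJ2 was lower in Medial than in Ventral Thalamus, with 1.08% of all genes called. These 2 genes were 2.99% of the channel genes, beside 1.3% of all genes called in at least 1 pair. The blocked F test called 0 channel genes (0.393% of all genes; smallest adjusted p over the channels 0.0815). Each nucleus against the rest also gave 0 calls, beside 0.176% of all genes for Centre Median, 0.159% for Medial Thalamus, 0.527% for Ventral Thalamus and 0% for the other 2 nuclei, with a smallest adjusted p of 0.0528.

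At an unadjusted p under 0.05 the blocked fit passed 10 channel genes in the F test (14.9%), beside 9.68% of all genes. Against the rest it passed 3 in Anterior Thalamus (5.75% of all genes), 9 in Centre Median (13.4% of the channels, 5.92% of all genes), 9 in Medial Thalamus (10.3% of all genes), 4 in Pulvinar (3.73%) and 10 in Ventral Thalamus (14.9% of the channels, 11.9% of all genes). In at least 1 pair it passed 31 (46.3%), beside 32.4% of all genes. The channel share stood furthest above that of all genes in Centre Median, and the gap was not tested.

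The order of the nuclei within each set of 5 arrays with the same replicate number uses no difference between the sets. Within replicate 1 XIST was uneven among the nuclei, as given above, and its bearing on the order was not tested. In 21 channel genes 1 nucleus was highest in both sets, beside 24.8% of all genes, and in 11 genes 1 nucleus was lowest in both, beside 21.4%. Medial Thalamus was highest for 6 genes (KCNE4, KCNIP1, KCNJ1, KCNJ4, KCNS1 and KCNS3; 5.01% of all genes), Ventral Thalamus for 6 (KCNA1, KCNC1, KCND3, KCNF1, KCNMA1 and KCNMB3; 8.69%), Centre Median for 4 (KCNB2, KCND1, KCNJ15 and KCNK15; 3.58%), Pulvinar for 3 (HCN2, KCNA5 and KCNJ6; 2.89%) and Anterior Thalamus for 2 (4.61%). Ventral Thalamus was lowest for 4 genes (KCNAB2, KCNG2, KCNK2 and KCNV2; 5.78%), Medial Thalamus for 3 (HCN2, KCNE1 and KCNIP2; 5.52%), Centre Median for KCND3 and KCNS1 (4.14%), Anterior Thalamus for 2 (3.12%) and Pulvinar for none (2.86%).

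The 2 HCN genes measured, HCN2 and HCN4, encode subunits of the hyperpolarization-activated channel found in relay neurons. HCN2 read 5.62 and 5.94 in Anterior Thalamus, 5.57 and 5.94 in Centre Median, 5.45 and 5.66 in Medial Thalamus, 5.73 and 6.06 in Pulvinar, and 5.70 and 5.80 in Ventral Thalamus. Within each set Pulvinar was highest and Medial Thalamus lowest, but across sets the nuclei overlapped. Medial Thalamus was 0.24 below the other 4 nuclei (SE 0.0860, 95% interval −0.43 to −0.05; limma with the replicate block, adjusted p = 0.326), and the second HCN2 probe set gave −0.04. Without the block the interval for the used probe set was −0.59 to 0.11. HCN4 read between 5.65 and 5.93 on all 10 arrays, and its nucleus means spanned 0.09. Its largest difference from the rest, −0.07 in Medial Thalamus, had an interval from −0.28 to 0.13 with the block and from −0.32 to 0.18 without it. Both HCN genes read below the median gene mean of 6.99 on every array, and their detection above background was not tested.

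Kv4 channels carry the fast, inactivating A-type current below spike threshold, and KChIP proteins bind them and set their surface level and kinetics. KCND3, which encodes Kv4.3, read 8.77 and 9.01 in Anterior Thalamus, 7.84 and 8.49 in Centre Median, 8.43 and 8.83 in Medial Thalamus, 8.83 and 8.86 in Pulvinar, and 8.86 and 9.08 in Ventral Thalamus. Centre Median was lowest and Ventral Thalamus highest in both sets, though the higher Centre Median array stood above the lower one of Medial Thalamus. Centre Median was 0.81 below Ventral Thalamus (SE 0.152, 95% interval −1.14 to −0.48, 1.75-fold), by 1.02 in replicate 1 and 0.59 in replicate 2. The limma adjusted p was 0.0444 with the replicate block and 1.00 without it (SE 0.254). Against the other 4 nuclei together Centre Median was 0.67 lower (SE 0.120, 1.59-fold), with an adjusted p of 0.0528 in the blocked fit.

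The KCND3 call depended on single arrays and on 1 probe set. It was lost without either array of Anterior Thalamus (adjusted p 0.0713 and 0.0698), of Centre Median (0.474 and 0.0658) or of Ventral Thalamus (0.281 and 0.207), after quantile normalisation (0.152), with the actin ratio as a covariate (0.288), and when replicate 1 was divided by the XIST level (0.121). The difference itself was −0.74, −0.80 and −0.78 in those last 3 settings, and −0.59 to −1.02 with arrays left out. The other 3 KCND3 probe sets differed between Centre Median and the rest by 0.07, −0.04 and −0.13, and the mean of all its probe sets gave −0.24 against Ventral Thalamus (adjusted p = 0.497 with the block). Against Ventral Thalamus, 5 of 6 neuron markers and 6 of 6 oligodendrocyte markers were lower in Centre Median, with medians of −0.29 and −0.35. Against the rest, 3 of 6 neuron markers (median 0.009) and 5 of 6 oligodendrocyte markers (median 0.12) were higher in Centre Median. The part of these cells in the KCND3 difference was not tested.

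**Figure D2:**
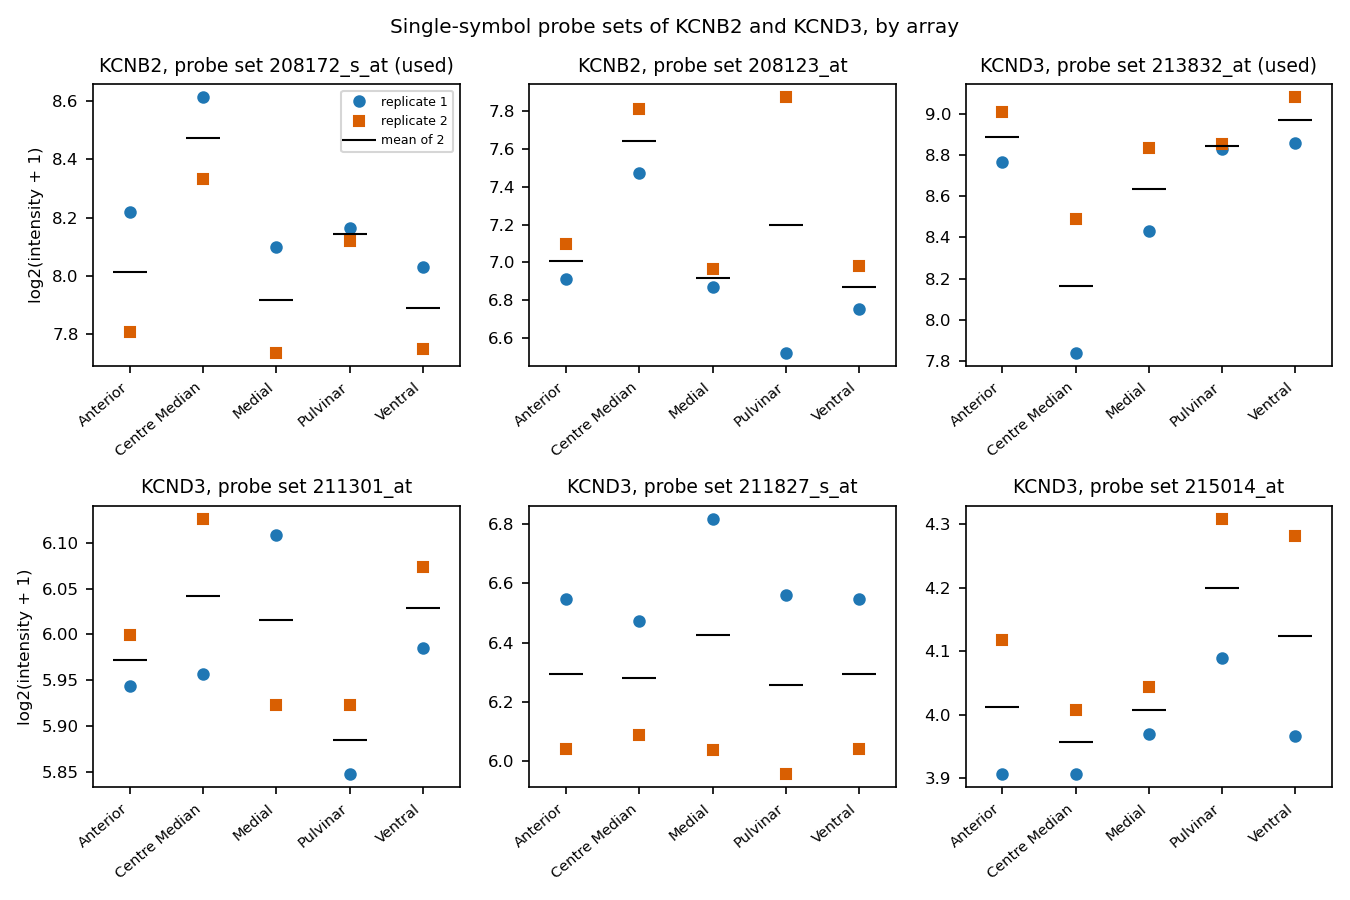
Log2 intensity by nucleus for each single-symbol probe set of KCNB2 and KCND3; circles are replicate 1, squares replicate 2 and bars the mean of both, each panel with its own axis. Centre Median is 0.67 below the rest in the probe set used for KCND3 and within 0.13 of the rest in the other 3. Those 3 have lower mean levels (4.06 to 6.31) than the one used (8.70). Both KCNB2 probe sets have their highest mean in Centre Median.

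KCND2, which encodes Kv4.2, read 7.84 and 8.34 in Anterior Thalamus, 7.75 and 8.44 in Centre Median, 6.81 and 8.54 in Medial Thalamus, 7.81 and 8.92 in Pulvinar, and 7.45 and 8.27 in Ventral Thalamus. Every replicate 2 array was above its replicate 1 partner, by 0.97 on average, which is more than the 0.69 between the highest and lowest nucleus means. Medial Thalamus was lowest in replicate 1 but second highest in replicate 2. Pulvinar stood 0.44 above the rest (SE 0.176; limma with the block, adjusted p = 0.999). KCND1, the remaining Kv4 gene, was highest in Centre Median in both sets, at 6.52 and 6.69, where it stood 0.32 above the rest (adjusted p = 0.559 with the block).

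KCNIP1, which encodes KChIP1, read 6.78 and 6.52 in Anterior Thalamus, 6.95 and 6.60 in Centre Median, 7.15 and 7.18 in Medial Thalamus, 6.85 and 6.52 in Pulvinar, and 6.92 and 6.55 in Ventral Thalamus. Both Medial Thalamus arrays were above all 8 others. The difference from the rest was 0.45, 1.37-fold, with an SE of 0.104 and a 95% interval of 0.23 to 0.68 in the blocked fit. Without the block the SE was 0.166 and the interval 0.07 to 0.84. The difference missed the threshold in both limma fits (adjusted p 0.112 with the block and 1.00 without). KCNIP2 spanned 0.23 among nucleus means.

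KCNB2 encodes Kv2.2, a slow delayed rectifier that acts during sustained firing. It read 8.22 and 7.81 in Anterior Thalamus, 8.61 and 8.33 in Centre Median, 8.10 and 7.74 in Medial Thalamus, 8.16 and 8.12 in Pulvinar, and 8.03 and 7.75 in Ventral Thalamus. Both Centre Median arrays were above the other 8. Centre Median exceeded the rest by 0.48 in each set (SE 0.103, 95% interval 0.26 to 0.70, 1.40-fold; limma adjusted p 0.122 with the block and 1.00 without). Without the block the SE was 0.173 and the interval 0.08 to 0.88. A second KCNB2 probe set read 7.47 and 7.81 in Centre Median, and its difference from the rest was 0.65 (SE 0.187, adjusted p = 0.369 with the block), although the replicate 2 array of Pulvinar was higher still at 7.88.

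**Figure D3:**
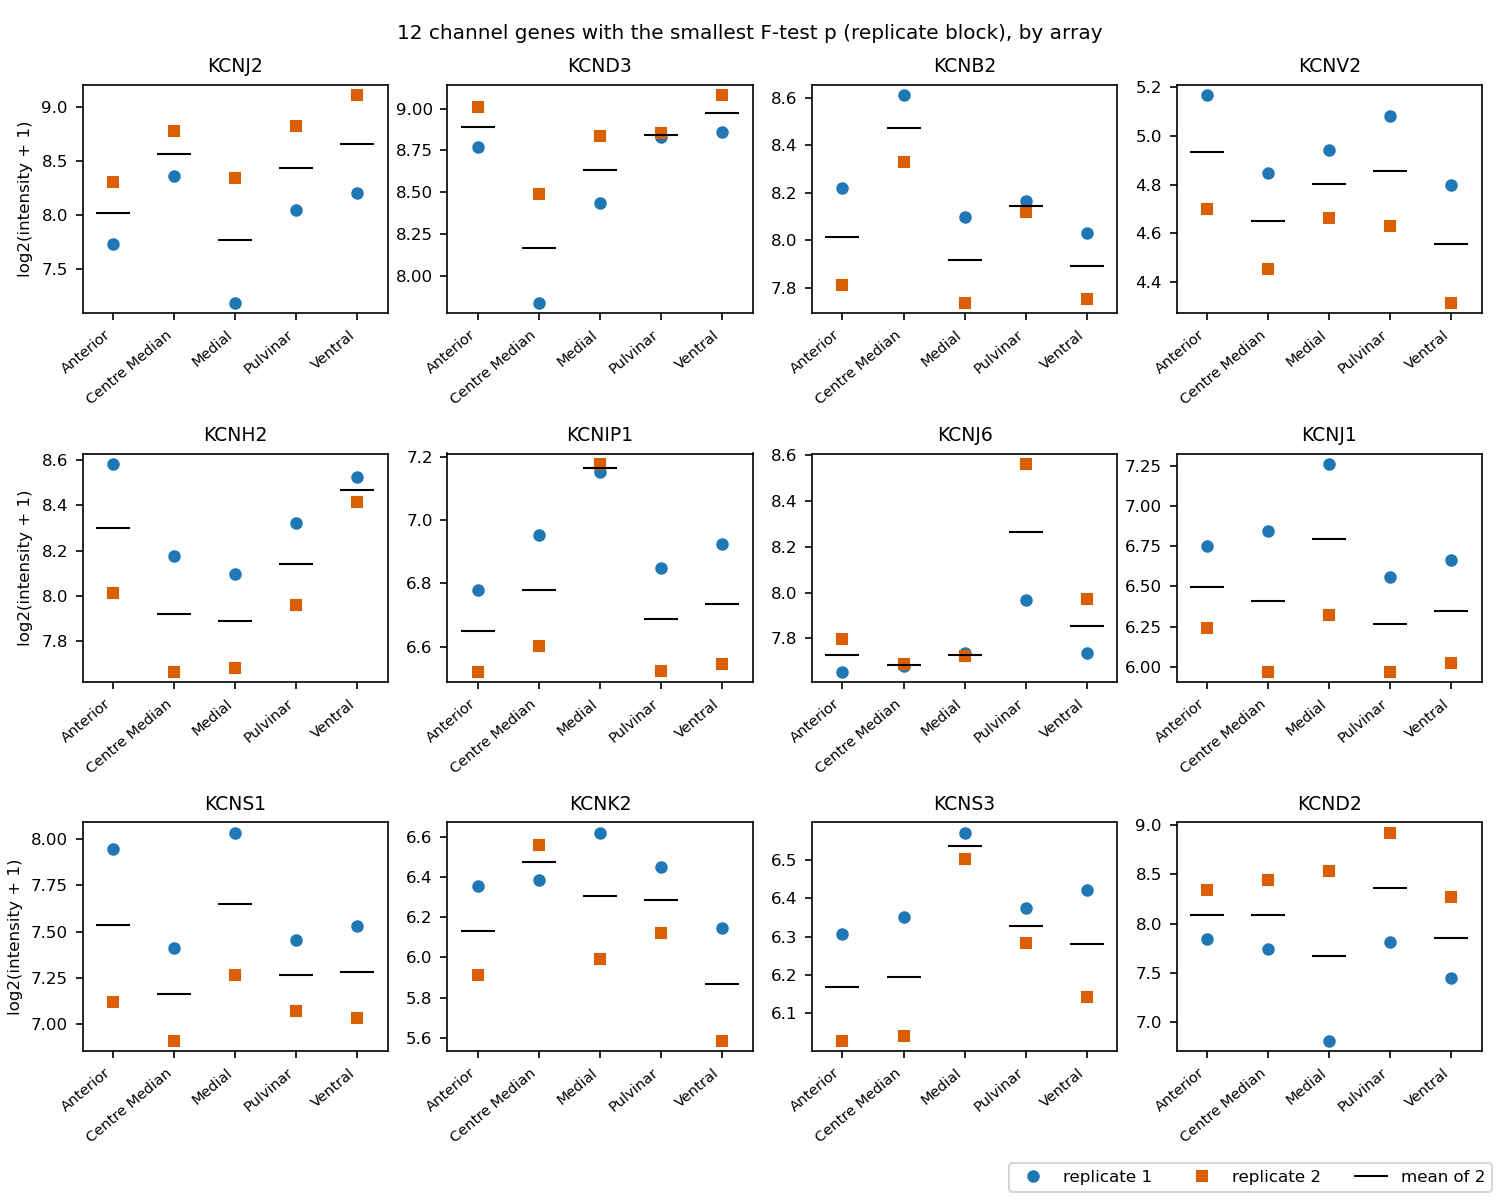
Log2 intensity by nucleus for the 12 channel genes with the smallest blocked F-test p; circles are replicate 1, squares replicate 2 and bars the mean of both, each panel with its own axis. Both arrays of 1 nucleus stand clear of the other 8 in KCNB2 (Centre Median), KCNIP1 and KCNS3 (both Medial Thalamus), and in KCND2 all replicate 2 arrays lie above their replicate 1 partners.

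Modifier subunits form no channel alone and change Kv2 channels when they join them. Of the 7 measured, 4 had 1 nucleus highest and 4 had 1 lowest in both sets. KCNS1 read 7.95 and 7.12 in Anterior Thalamus, 7.41 and 6.91 in Centre Median, 8.03 and 7.26 in Medial Thalamus, 7.46 and 7.07 in Pulvinar, and 7.53 and 7.04 in Ventral Thalamus. Medial Thalamus, highest in both sets, was 0.34 above the rest (SE 0.109; limma with the block, adjusted p = 0.268). KCNS3 was likewise highest in Medial Thalamus, at 6.57 and 6.50, beside 6.03 to 6.42 elsewhere, a difference of 0.29 (SE 0.0941, adjusted p = 0.264 with the block). KCNV2 was lowest in Ventral Thalamus in both sets, at 4.80 and 4.31, and stood 0.25 below the rest (SE 0.0669, adjusted p = 0.125 with the block). KCNF1 stood highest in Ventral Thalamus, 0.31 above the rest (adjusted p = 0.289 with the block).

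Kv1 channels sit on axons and keep neurons from firing repeatedly, and Kv beta subunits bind them. KCNA1, which encodes Kv1.1, read 6.12 and 5.74 in Anterior Thalamus, 5.99 and 5.85 in Centre Median, 6.14 and 5.46 in Medial Thalamus, 6.01 and 5.64 in Pulvinar, and 6.20 and 6.30 in Ventral Thalamus. Ventral Thalamus was highest in both sets, by 0.38 over the rest (SE 0.123, 95% interval 0.11 to 0.64; limma with the block, adjusted p = 0.226). KCNA3, which encodes Kv1.3, read 7.38 and 7.16 in Ventral Thalamus and 7.33 to 8.25 elsewhere, with a difference of −0.50 (SE 0.201, adjusted p = 0.336 with the block). The other 3 Kv1 genes spanned 0.10 to 0.37. Among the Kv beta genes, KCNAB1 was 0.29 higher in Ventral Thalamus (adjusted p = 0.502 with the block), with 0.30, 0.03 and 0.31 in its other 3 probe sets. KCNAB2 was 0.20 lower there (adjusted p = 0.545) and 0.08 higher in its second probe set.

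Kv3 channels repolarize the membrane quickly and allow high firing rates. KCNC1, which encodes Kv3.1, read 8.71 and 8.03 in Anterior Thalamus, 8.42 and 8.34 in Centre Median, 8.90 and 8.13 in Medial Thalamus, 8.83 and 8.39 in Pulvinar, and 8.93 and 8.70 in Ventral Thalamus. Ventral Thalamus was highest in both sets, by only 0.03 over Medial Thalamus in replicate 1, and stood 0.34 above the rest (SE 0.131; limma with the block, adjusted p = 0.307). The nucleus means of KCNC2 and KCNC4 spanned 0.09 and 0.14. For KCNC2 in Anterior Thalamus the largest difference from the rest had a blocked interval of −0.37 to 0.25. That of KCNC4, in Medial Thalamus, was −0.35 to 0.16. KCNC2 had a mean of 5.59, below the median of 6.99 over all genes, and its detection above background was not tested.

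KCNH genes encode the EAG, ERG and ELK channels, and KCNH2 encodes ERG1, a slowly deactivating channel. KCNH2 read 8.58 and 8.01 in Anterior Thalamus, 8.17 and 7.67 in Centre Median, 8.09 and 7.68 in Medial Thalamus, 8.32 and 7.96 in Pulvinar, and 8.52 and 8.41 in Ventral Thalamus. Centre Median and Medial Thalamus were the lower pair in both sets, and Anterior and Ventral Thalamus the higher pair. Medial Thalamus was 0.58 below Ventral Thalamus (SE 0.137, 95% interval −0.88 to −0.28; limma with the block, adjusted p = 0.0596). Ventral Thalamus exceeded the rest by 0.41 (SE 0.108, adjusted p = 0.125 with the block), beside 0.04 in the second KCNH2 probe set. Of the Kv7 genes, KCNQ3, a subunit of the M channel that limits repetitive firing, spanned 0.12 and KCNQ1 spanned 0.10.

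Inward rectifiers were the largest family, with 12 genes. KCNJ2 encodes Kir2.1, a strong rectifier that holds the resting potential. It read 7.73 and 8.30 in Anterior Thalamus, 8.36 and 8.78 in Centre Median, 7.18 and 8.34 in Medial Thalamus, 8.05 and 8.82 in Pulvinar, and 8.20 and 9.11 in Ventral Thalamus. In replicate 1 Medial Thalamus was lowest; in replicate 2 it was 0.04 above Anterior Thalamus, the lowest there. Medial Thalamus was 0.90 below Ventral Thalamus (SE 0.164, 95% interval −1.25 to −0.54, 1.86-fold), by 1.02 in replicate 1 and 0.77 in replicate 2. The limma adjusted p was 0.0237 with the replicate block and 1.00 without it (SE 0.476). Medial Thalamus was 0.66 below the other 4 nuclei together (SE 0.130, adjusted p = 0.0688 with the block). Without the block the 95% interval of this difference was −1.53 to 0.21.

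The KCNJ2 call was lost without replicate 1 of Medial Thalamus (adjusted p 0.156) or either array of Ventral Thalamus (0.0784 and 0.202), after quantile normalisation (0.0816), and with the actin ratio as a covariate (0.680). The difference was −0.65 without that Medial Thalamus array, −0.99 and −0.81 without those of Ventral Thalamus, −0.82 after quantile normalisation and −0.61 with the actin covariate. KCNJ2 has a single probe set. Markers of several cell types also differed between Medial and Ventral Thalamus. All 6 neuron markers were lower in Medial Thalamus (median −0.56), with summed intensities of 16774 and 16815 beside 21798 and 27507, and 5 of 6 oligodendrocyte markers were lower (median −0.86), with sums of 7475 and 10942 beside 15039 and 18436. Of the 8 astrocyte markers, 4 were higher and 4 lower in Medial Thalamus (median 0.05). Astrocyte sums were 8656 and 15857 in Medial and 8386 and 12037 in Ventral Thalamus. Endothelial sums were 1182 and 1125 beside 1214 and 1210. All 6 microglia markers (median 0.04) and all 3 choroid plexus markers (median 0.39) were higher in Medial Thalamus. Choroid plexus sums were 414 and 4956 in Medial and 401 and 333 in Ventral Thalamus, so that excess lay on the replicate 2 array. The blocked limma fit called SLC17A6, MAG, MOG, CNP and the GABAergic marker GAD1 lower and GFAP higher in Medial Thalamus, and on this scale no marker is at 0. The part of these cells in the KCNJ2 difference was not tested.

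KCNJ6 and KCNJ9 encode GIRK2 and GIRK3, the channels opened by G-protein-coupled receptors such as the GABA-B receptor. KCNJ6 read 7.65 and 7.80 in Anterior Thalamus, 7.68 and 7.69 in Centre Median, 7.73 and 7.72 in Medial Thalamus, 7.97 and 8.56 in Pulvinar, and 7.74 and 7.97 in Ventral Thalamus. Pulvinar was highest in both sets. The difference from the rest was 0.52 (SE 0.120, 95% interval 0.26 to 0.78, 1.43-fold), at 0.27 in replicate 1 and 0.77 in replicate 2, and missed the threshold in both limma fits (adjusted p 0.686 with the block and 1.00 without). KCNJ9 lay between 6.95 and 7.54 on all arrays and was 0.22 lower in Centre Median than in the rest (adjusted p = 0.888 with the block).

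KCNJ10 encodes Kir4.1, by which astrocytes take up potassium, and KCNJ16 encodes its partner Kir5.1. KCNJ10 read 7.06 and 6.45 in Anterior Thalamus, 7.04 and 6.66 in Centre Median, 6.77 and 6.41 in Medial Thalamus, 7.20 and 6.16 in Pulvinar, and 6.64 and 6.64 in Ventral Thalamus. The order of nuclei differed between the sets: Pulvinar was highest in replicate 1 and lowest in replicate 2. KCNJ16 lay between 4.94 and 5.16 on all arrays, a low level at which detection above background was not tested. KCNJ1, which encodes the channel ROMK, was highest in Medial Thalamus, at 7.26 and 6.32, in both sets, a difference of 0.42 from the rest (SE 0.106; limma with the block, adjusted p = 0.158). Its second probe set gave 0.12 (adjusted p = 0.772 in the blocked limma fit). There Medial Thalamus, at 6.25 in replicate 1, was below Anterior Thalamus (6.32) and Pulvinar (6.38).

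Two-pore channels carry the leak current that modulatory transmitters reduce in the thalamus during wakefulness. KCNK2, which encodes TREK-1, read 6.35 and 5.91 in Anterior Thalamus, 6.38 and 6.56 in Centre Median, 6.62 and 5.99 in Medial Thalamus, 6.45 and 6.12 in Pulvinar, and 6.15 and 5.59 in Ventral Thalamus. Ventral Thalamus was lowest in both sets, 0.43 below the rest (SE 0.132, 95% interval −0.72 to −0.15; limma with the block, adjusted p = 0.192). KCNK1, which encodes TWIK-1, and KCNK3, which encodes TASK-1, spanned 0.23 and 0.18 among nucleus means. The second KCNK1 probe set differed from the used one, where Medial Thalamus was 0.02 above the rest. In it Medial Thalamus, at 6.86 and 7.68, was 0.42 below the rest (SE 0.115, adjusted p = 0.192 in the blocked limma fit). Ventral Thalamus was 0.30 above the rest in that probe set (adjusted p = 0.305 in the same fit). Over the 9 genes of the family the span had a median of 0.23.

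Of the calcium-activated channels, KCNMA1, the pore of the large-conductance channel, read 8.02 and 7.45 in Anterior Thalamus, 8.24 and 7.58 in Centre Median, 7.74 and 8.05 in Medial Thalamus, 8.27 and 8.004 in Pulvinar, and 8.41 and 8.06 in Ventral Thalamus. Ventral Thalamus was highest in both sets, by 0.32 over the rest (SE 0.151; limma with the block, adjusted p = 0.435), but 2 other KCNMA1 probe sets gave −0.23 and −0.13, so its direction depended on the probe set. KCNN3 encodes SK3, which carries the afterhyperpolarization. It stood 0.35 higher in Pulvinar than in the rest (adjusted p = 0.999 with the block), at 0.01 in replicate 1 and 0.69 in replicate 2, and its second probe set gave 0.40.

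The 39 channel genes chosen by neither their F test nor the list of thalamic channels had nucleus means that spanned 0.04 to 0.53, with a median of 0.24. Their blocked F-test adjusted p ran from 0.620 to 0.999. Among the families not described above, the 4 KCNE genes, whose products are small subunits of Kv channels, spanned 0.19 to 0.27. Where a channel gene had several probe sets, the 27 not used for the gene had the sign of the used one in 20 cases and the opposite sign in 7, for the nucleus that differed most from the rest.

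Partners of these channels were counted from a list of 41 genes, of which 34 were measured. They include auxiliary subunits, anchoring proteins, receptors that open the channels, and pumps that restore the potassium gradient. The blocked limma fit called 1, ANK3, and the fit without the block called none. ANK3 encodes ankyrin-G, which anchors channels at the axon initial segment. It read 10.34 and 11.20 in Ventral Thalamus and 9.47 to 10.54 elsewhere, a difference of 0.69 (adjusted p = 0.0391 with the block). In that comparison 0.527% of all genes were called. Of the 34 partners, 22 stood above the other nuclei in Ventral Thalamus, 18 in Pulvinar, 17 in Anterior Thalamus, 14 in Centre Median and 10 in Medial Thalamus. The same shares over all genes were not counted, so whether these counts are unusual is not known. The median difference of the partners was 0.087 in Ventral and −0.095 in Medial Thalamus, beside −0.010 and −0.00048 over all genes. In Ventral and Medial Thalamus, neuron and oligodendrocyte markers stood in the same direction as the partners. In Ventral Thalamus 6 of 6 neuron markers (median 0.40) and 6 of 6 oligodendrocyte markers (median 0.67) were above the other nuclei. The blocked limma fit called MAG and CNP there. In Medial Thalamus 6 of 6 neuron markers (median −0.39) and 5 of 6 oligodendrocyte markers (median −0.55) were below. In Pulvinar, Anterior Thalamus and Centre Median, 4, 2 and 3 of the 6 neuron markers were above. For the 6 oligodendrocyte markers these counts were 1, 3 and 5. Of the 8 astrocyte markers, 4 were above and 4 below in Ventral Thalamus, with GFAP called lower. The part of these cell types in the ANK3 difference and in the partner counts was not tested. GABBR2, a subunit of the GABA-B receptor that opens GIRK channels, was 0.59 lower in Centre Median than in the rest (adjusted p = 0.165 with the block), at 11.14 and 11.01 beside 11.21 to 11.88 elsewhere. RGS7, which speeds the closing of GIRK channels, was 0.47 lower there (adjusted p = 0.107 with the block).

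Many channel genes differed between the replicate sets. Of the 67 genes, the blocked limma fit called 6 higher (8.96%) and 29 lower (43.3%) in replicate 2, beside 25.4% and 31.1% of all genes. Both directions together made 52.2% of the channel genes and 56.6% of all genes. The shift was larger than the span of nucleus means in 26 channel genes (38.8%), beside 51.7% of all genes. The 6 higher ones were HCN2, KCND2, KCND3, KCNJ2, KCNK12 and KCNV1, with KCND2 (0.97) and KCNJ2 (0.77) at the top. The lowest were KCNJ1 (−0.71), KCNE1 (−0.71) and KCNMB2 (−0.67), each lower in replicate 2 in all 5 nuclei. The median shift was −0.19 over the channels and −0.05 over all genes. The labels do not say in what the replicate sets differ. XIST and the actin ratio were higher in replicate 2 in every nucleus, but replicate 1 was uneven in both. In replicate 1 XIST was 8.96 in Centre Median and 9.60 in Pulvinar, beside 6.70 to 7.22 elsewhere. The actin ratio of its Ventral Thalamus array, 1.22, lay within the replicate 2 range.

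**Figure D4:**
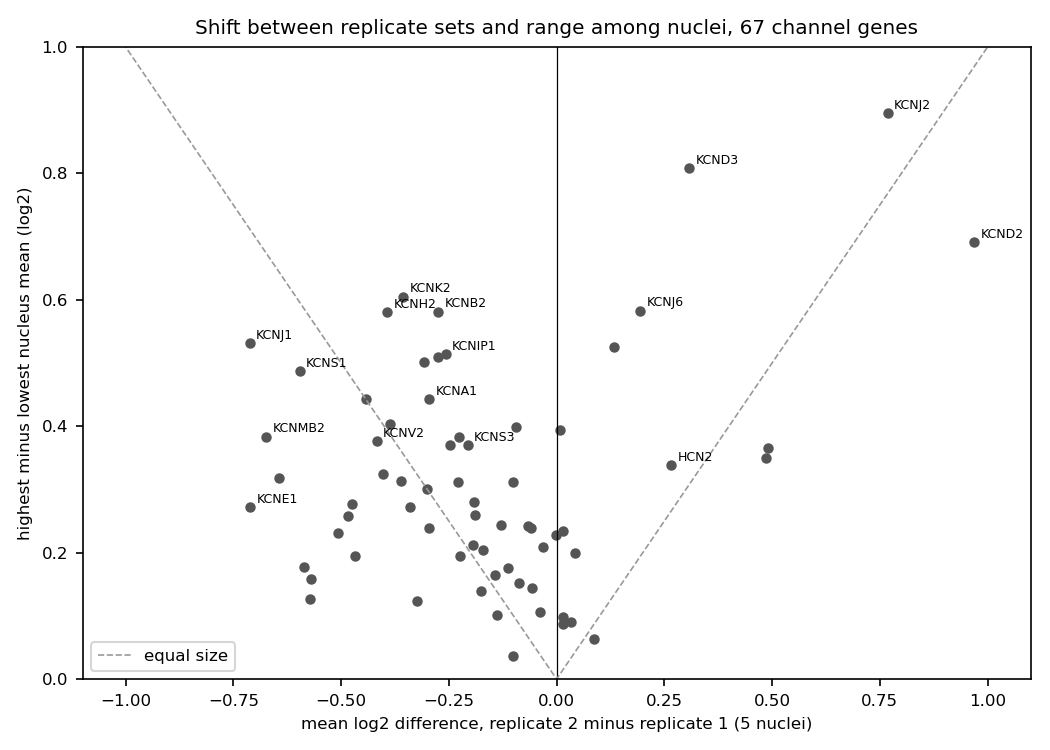
Each point is 1 of the 67 channel genes, placed by its mean log2 difference between replicate 2 and replicate 1 over the 5 nuclei (horizontal) and by the log2 distance between its highest and lowest nucleus means (vertical); the dashed lines mark equal size. The 26 genes below the dashed lines, among them KCND2, KCNJ1 and KCNE1, shifted more between replicates than between nuclei; they are 38.8% of the channel genes, beside 51.7% of all genes.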

How the data were processed

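The deposited table gives 1 intensity per probe set and array, on a linear scale, made with RMA per the submitters' processing notes; the version is not given in the sources used here, nor whether all 10 arrays were normalised together. RNA of macaque was hybridised to a human array (Affymetrix U133A), so levels of different probe sets were not tested against each other. What sequence mismatches do to a value was not tested either. The number of arrays, 2 per nucleus, limits the precision.

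Probe sets were named from GEO's platform annotation. Of 22283 probe sets, 68 controls aside, 19065 carried exactly 1 symbol and gave 11963 genes, each read from its probe set of highest mean across the 10 arrays. The channels had 94 such probe sets, and 3 probe sets that also carried other symbols were left out. Intensities were converted to log2(value + 1), with no filter on low values. One limma fit (limma 3.58.1, R 4.3.3; lmFit, eBayes with trend) over all genes gave the F test, each nucleus against the mean of the other 4 and the 10 pairs, with Benjamini-Hochberg adjustment over all genes within each comparison, a call at an adjusted p under 0.05 and 95% intervals. The fold changes are these log2 differences converted back to ratios of value + 1, given without sign.

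The main fit had no block. Across genes, the difference between replicate 2 and replicate 1 correlated between every pair of nuclei (0.758 to 0.831), so the pairing by replicate number was taken as real and the blocked fit is given beside the main one; the median residual SD was 0.220 without and 0.126 with the block. The script was tested on simulated data. Genes were named by value if called in the F test or against the rest, if among the 12 smallest blocked F-test p, or if on a list of 34 thalamic and glial channels, of which 21 were measured; the others were not analysed here. KCND1, KCNA3, KCNF1, KCNQ1 and KCNIP2, and those listed only in counts, fall outside this rule and were chosen after their values were seen. Channels, families, partners and marker lists were chosen with earlier results of these data known. Alternatives were the pseudocount, a filter on low values, quantile normalisation, the mean of all probe sets, the variance trend, the actin 3′ minus 5′ covariate, a division of replicate 1 by its XIST level, and leaving out each array. Figures were drawn with matplotlib 3.10.9. No sequences or coordinates are given, since no genome was used here.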

Additional observations from a re-analysis of the deposited data

How the results depend on the processing

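Without the block, 0 channel genes were called under each of the 16 alternatives run. With the replicate block, the number of channel genes called in at least 1 pair of nuclei was 2 (KCND3 and KCNJ2), and it was 2 with a pseudocount of 0, 2 without the variance trend, 3 with the filter on low values (KCNH2 added), 1 with the mean of all probe sets, 3 when replicate 1 was divided by its XIST level (KCNA3, KCNK2 and KCNJ2), and 0 after quantile normalisation or with the actin covariate. With the block, the low-value filter also gave 1 call in Medial Thalamus against the rest (KCNJ2), and the XIST division gave 1 in the F test and 1 in Ventral Thalamus against the rest (KCNA3 in both). Leaving out 1 array at a time, where the lone array is assumed to vary like the others, gave 0 to 3 calls in pairs with the block (0 without either Ventral Thalamus array, 3 without replicate 2 of Medial Thalamus, and 1 without either array of Anterior Thalamus or Centre Median or replicate 1 of Medial Thalamus). It gave 0 to 1 in the F test (KCNJ2, without replicate 2 of Medial Thalamus), 0 to 1 in Centre Median (KCND3, without either Medial Thalamus array or replicate 2 of Pulvinar) and 0 to 2 in Medial Thalamus (KCND2 and KCNJ2, without its replicate 2). The cause of these changes was not tested.

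Over the 30 differences of named genes, 973 of 996 values kept their direction and 23 reversed. Many of these values could not change. With all arrays present the block leaves the differences as they are, and the variance trend alters only their spread. For each named gene the nucleus was also chosen by its smallest blocked p against the rest. The count is therefore no measure of robustness. KCNMA1 in Ventral Thalamus became −0.011 with the mean of all probe sets, and −0.14 with the actin covariate and the replicate block. The actin covariate turned KCNV2 in Ventral Thalamus to 0.000188 and KCNK3 in Medial Thalamus to −0.053, and with the block it turned HCN4 in Medial Thalamus to 0.027 and KCNAB2 in Ventral Thalamus to 0.046. Leaving out 1 array without the block reversed KCNJ10 in Centre Median (−0.0084 to 0.37), KCNQ3 there (−0.22 to 0.054), KCND2 in Pulvinar (−0.12 to 0.99), and KCNJ1 (−0.053 to 0.89) and KCNS1 (−0.046 to 0.72) in Medial Thalamus. With the block it reversed KCNJ16 in Ventral Thalamus (−0.11 to 0.022). In both fits it reversed KCNC2 in Anterior Thalamus (−0.13 to 0.0093, and −0.15 to 0.024 or 0.028 with the block), KCNK1 in Pulvinar (−0.027 to 0.35, and −0.073 to 0.40), and in Medial Thalamus HCN4 (−0.20 to 0.047, and −0.21 to 0.057) and KCNK3 (−0.27 to 0.54, and −0.00080 to 0.28). The number of channel genes with 1 nucleus highest or lowest in both sets was 26, and it was recomputed in 3 alternatives. With a pseudocount of 0 it was the same 26 genes. After quantile normalisation it was 26 with 23 shared (KCNC1, KCNG2 and KCNMA1 lost), and with the mean of all probe sets it was 26 with 23 shared (HCN2, KCNAB2 and KCNMA1 lost). With 2 arrays per nucleus, the unblocked spread between arrays limits what can be called.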

Other observations

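KCNJ13, which encodes Kir7.1, a channel of the choroid plexus and other epithelia, was named after its values were seen. It read 6.08 on the replicate 2 array of Medial Thalamus and 5.13 to 5.51 on the other 4 replicate 2 arrays; in replicate 1, Medial Thalamus read 5.78 and the other nuclei 5.69 to 6.23. The difference of Medial Thalamus from the rest was −0.12 in replicate 1 and 0.73 in replicate 2, and 0.31 in the limma fit (adjusted p = 0.597 with the block). The second KCNJ13 probe set, with a lower mean level of 4.32, did not show this difference (0.0018). There the replicate 2 array of Medial Thalamus read 4.27, within the 4.11 to 4.30 of the other replicate 2 arrays. On that Medial Thalamus array the choroid plexus gene TTR read 12.19, beside 7.17 to 8.41 on the other 9 arrays. The summed intensity of the 3 choroid plexus markers was 4956 on it, beside 333 to 581. The part of choroid plexus RNA in the KCNJ13 value was not tested.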
